A study of Mus musculus with 3 samples.

Results

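Cohesin is the ring-shaped protein complex that holds DNA loops, and in dividing cells sister chromatids, inside one ring. The 10 genes described here encode the subunits of the somatic ring (Smc1a, Smc3, Rad21, Stag1 and Stag2), its loader (Nipbl), its release factor (Wapl), the PDS5 regulators (Pds5a and Pds5b) and Ctcf, the zinc finger protein that marks loop boundaries. They were chosen by name from the pathway and not by a cut on their values, though earlier results of these data were known. They make up 10 of 18130 protein-coding genes measured. RNA-seq was done on 3 control libraries labelled as wild-type (WT) cortical neurons of mouse, all given the treatment label CON, which form 1 group. The labels give no age, strain or culture time, and nothing in them says that the libraries came from separate cultures or animals, so the spread between them may be technical. With 1 group, genes were compared with each other inside each library.

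As background, SMC1A and SMC3 are long coiled-coil ATPases that join at a hinge, and the kleisin RAD21 closes the ring and carries 1 STAG protein, either STAG1 or STAG2. NIPBL works with MAU2 to let cohesin extrude loops, WAPL with a PDS5 protein releases it, and CTCF bound to DNA stops it. In neurons, which no longer divide, the complex is known for its part in gene regulation through loops, and variants of NIPBL, SMC1A, SMC3 and RAD21 are known causes of Cornelia de Lange syndrome in people.

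Levels are given as TPM, read density per length relative to the whole library, as the authors deposited it. For each gene the coding transcript that held the most reads was taken. With annotated exonic lengths (GENCODE M21), the reads on these coding transcripts added up to about 34450823, 30443130 and 29939087 in replicates 1, 2 and 3. These totals are approximate, since lengths were not adjusted in them for transcripts whose ends differ in the deposited data. Marker genes were checked against the label. All 8 pan-neuronal genes reached 1 TPM, with a summed level of 1632 to 1913 TPM, led by Stmn2 at 687 ± 55.6 TPM, with Elavl4 lowest at 19.4 ± 4.21 TPM. The 5 excitatory genes (310 to 319 TPM, Camk2a highest at 130 ± 4.27 and Slc17a6 lowest at 6.28 ± 1.23 TPM) and the 4 inhibitory genes (178 to 276 TPM, Sst at 106 ± 25.9 and Slc32a1 at 21.7 ± 4.86 TPM) all reached it too. Astrocyte genes summed to 410 to 505 TPM, with 6 of 6 over 1 TPM between Gfap (16.6 ± 1.75 TPM) and Slc1a3 (184 ± 19.1 TPM). Oligodendrocyte lineage genes summed to 48.4 to 81.8 TPM, with 5 of 6 over 1 TPM between Mog (0.029 ± 0.017 TPM) and Olig1 (34.4 ± 2.91 TPM). Proliferation genes summed to 20.6 to 26.02 TPM, with 7 of 8 over 1 TPM between Ccnb1 (0.612 ± 0.166 TPM) and Pcna (8.36 ± 1.20 TPM). Microglial genes (1.08 to 2.43 TPM, 1 of 5 over 1 TPM, led by Aif1 at 1.03 ± 0.425 TPM, Tmem119 at 0) and endothelial genes (0.529 to 0.807 TPM, 0 of 3, led by Kdr at 0.374 ± 0.185 TPM, Cldn5 at 0) were low. In such bulk RNA, fewer cells of a type and less RNA per cell cannot be told apart, and the part that astrocytes and dividing cells have in the levels below was not tested.

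All 10 genes reached a mean of 1 TPM, as did 61.8% of all coding genes. Their median level was 12.9 TPM, beside 2.91 TPM for all coding genes and 8.30 TPM for the coding genes of at least 1 TPM. They ran from Stag1, above 57.3% of coding genes, to Rad21, above 92.1%. Of the 10 genes, 6 lay over the median of the expressed genes. Few stretches of their transcripts were repeated: between 96.9% (Smc3) and 100% of their 50-base windows occurred at most once in the genome. Of the Smc3 windows found in the genome, 95.8% occurred once. A window across an exon junction has no genomic place of its own, so a single copy elsewhere went uncounted for it. No other annotated gene shared an exonic base with the 10 genes.

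Rad21 had the highest level of the ring genes and of all 10. On GRCm38 (GENCODE M21) it spans chromosome 15, 51962240 to 51991747, on the minus strand. It stood at 32.04, 33.6 and 36.9 TPM in replicates 1, 2 and 3 (34.2 ± 2.49 TPM, SD, n = 3, as for all errors here), on 5919, 5242 and 6079 reads. The SMC genes lie on chromosome 19 at 53600398 to 53645833 (Smc3) and chromosome X at 152016428 to 152062694 (Smc1a), both on the plus strand. Smc3 stood at 12.3, 14.1 and 15.2 TPM (13.8 ± 1.49 TPM). Smc1a stood at 11.8, 13.3 and 13.2 TPM (12.8 ± 0.820 TPM). Rad21 values did not overlap those of either SMC gene, while the values of Smc1a and Smc3 overlapped.

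Inside each library, Rad21 exceeded Smc3 by 1.30 ± 0.07 on the log2(TPM + 0.1) scale, which is 2.48 ± 0.119 times the level (two-sided exact permutation by sign flips, p = 0.25, n = 3). It exceeded Smc1a by 1.41 ± 0.07, a ratio of 2.68 ± 0.134, again in 3 of 3 libraries. Smc1a lay below Smc3 in each library, by -0.11 ± 0.08, which is little more than the spread. With 3 libraries 0.25 is the smallest p this test can give. It was the p of each of the 14 pairs compared, and stayed 0.25 after Benjamini-Hochberg adjustment over them, so none could pass 0.05. The Rad21 differences rest on using 1 transcript per gene. Rad21 has 1 transcript in the table, against 6 for Smc1a and 3 for Smc3, and with TPM added over all transcripts, which counts shared reads repeatedly, Rad21 minus Smc1a was -1.13 and Rad21 minus Smc3 was 0.0038. With the transcript of highest mean TPM, of any type, they were 0.77 and 1.09, and Smc1a minus Smc3 was 0.32. For Smc1a and Smc3 that transcript is a retained-intron model of 2 exons, so its TPM is the read density of a short part of the gene.

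**Figure D1:**
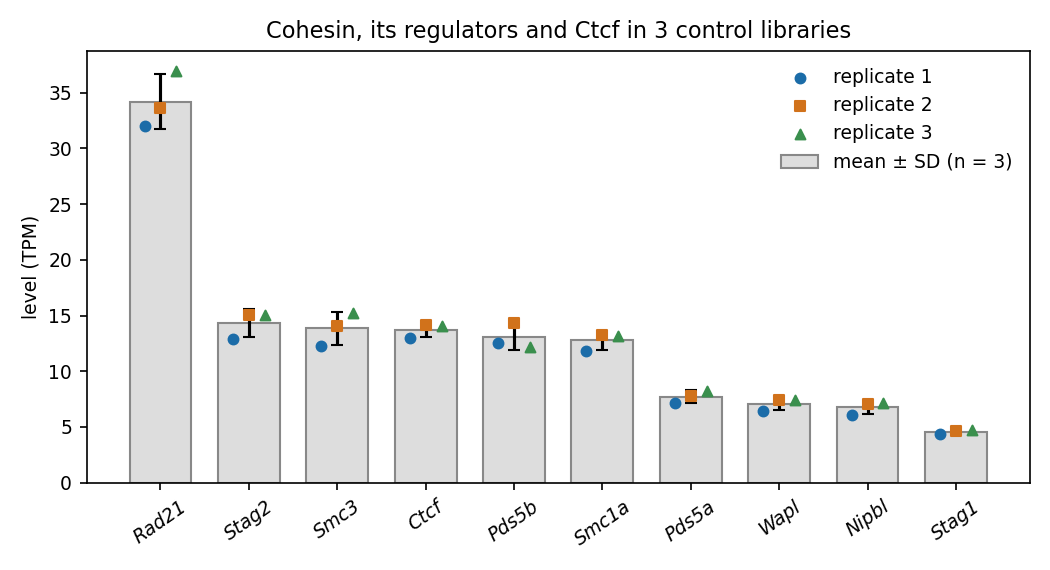
Level of each of the 10 genes in TPM (linear axis from 0) in replicates 1 to 3 (points), with the mean as a bar and the SD over 3 libraries. Rad21 stands alone at 34.2 TPM, 5 genes lie between 12.8 and 14.3 TPM, and Stag1 is lowest at 4.56 TPM.

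The STAG genes encode alternative subunits that bind RAD21, and STAG1 and STAG2 rings are known to differ in how stably they sit at CTCF sites. Stag2 stood at 12.9, 15.05 and 15.04 TPM (14.3 ± 1.22 TPM) and Stag1 at 4.32, 4.67 and 4.70 TPM (4.56 ± 0.210 TPM). The lowest Stag2 value was well above the highest Stag1 value. Stag2 exceeded Stag1 by 1.63 ± 0.06 log2 units, or 3.14 ± 0.128 times (exact permutation p = 0.25, n = 3), and by 0.95 with TPM added over their 8 and 17 transcripts. On GRCm38, Stag2 spans chromosome X, 42149317 to 42277185, on the plus strand, and Stag1 chromosome 9, 100597798 to 100959375, on the plus strand. Their coding sequences were 70.1% identical over 3738 aligned bases, and their transcripts shared 0 windows of 50 identical bases.

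Both STAG genes carry an annotated alternative exon of 111 bases at the same place, exon 31 of 34, which is coding in each and adds 37 codons without shifting the frame. The exons are printed from the reference genome (GRCm38, plus strand, 5′ to 3′), since the table holds a transcript with and one without each of them. Capitals mark the exon and lower case the 10 intron bases on either side, for Stag1 at chr9:100953476-100953606 and for Stag2 at chrX:42266356-42266486.
Stag1 exon 31: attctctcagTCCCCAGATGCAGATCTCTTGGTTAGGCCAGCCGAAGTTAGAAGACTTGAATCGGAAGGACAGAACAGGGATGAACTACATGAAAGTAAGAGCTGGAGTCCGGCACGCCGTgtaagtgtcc
Stag2 exon 31: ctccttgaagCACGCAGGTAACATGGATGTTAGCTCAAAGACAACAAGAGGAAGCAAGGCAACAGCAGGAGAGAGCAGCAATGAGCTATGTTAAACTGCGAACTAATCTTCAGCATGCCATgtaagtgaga
Laid side by side with no gap, 51 of the 111 bases were identical (45.9%). The 70.1% over the coding sequences came from an alignment that allowed gaps, so these shares are not like measures.

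Few reads fell on these exons alone. The Stag2 transcript with the exon held 12, 9 and 9 more reads than the one without it, out of 4089, 4015 and 4240. The Stag1 transcript with the exon held 6, 5 and 4 more reads, out of 1370, 1248 and 1328. At the mean read density of the transcript, 111 bases would hold 222 reads for Stag2 and 70.8 for Stag1 over the 3 libraries, so the extra reads came to 13.5% and 21.2% of that. These shares are mixed measures: the longer transcripts also have 105 (Stag2) and 166 (Stag1) more bases at their ends, which adds reads, and a read that reaches from the exon into its neighbours counts for both transcripts, which removes them. Among 111 annotated alternative exons in 105 other genes, from 11 bases shorter to 14 bases longer and measured the same way, the median was 22.8% with quartiles at 9.48% and 54.9%. Of those exons 33.3% lay at or below Stag2 and 46.8% at or below Stag1, and both values lay between the quartiles.

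**Figure D2:**
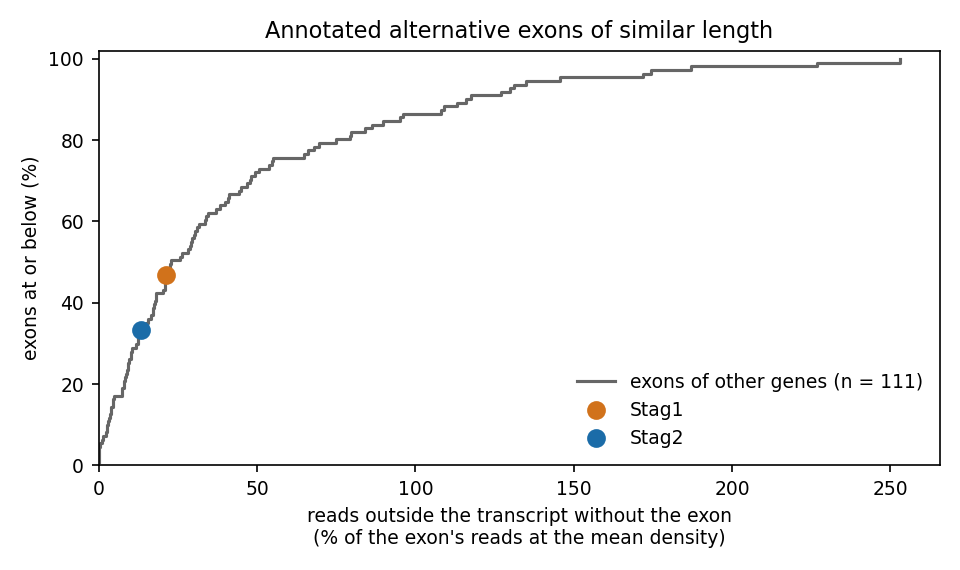
Cumulative share (vertical axis, %) of annotated alternative exons of similar length by the reads found outside the transcript that lacks the exon (horizontal axis, % of the reads the exon would hold at its transcript's mean density, summed over 3 libraries). Stag2 at 13.5% and Stag1 at 21.2% lie inside the distribution of the exons of other genes.

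By the transcripts chosen, Nipbl and Wapl were lower than each ring gene except Stag1. With TPM added over transcripts, Wapl stood at 60.5 TPM, above Rad21, Smc3 and Stag1 and below Smc1a and Stag2. Nipbl, the loader, stood at 6.11, 7.09 and 7.17 TPM (6.79 ± 0.588 TPM), and Wapl, the release factor, at 6.44, 7.42 and 7.44 TPM (7.10 ± 0.574 TPM). The library values of Nipbl and Wapl overlapped, yet Nipbl was the lower of the pair inside each library, by -0.06 ± 0.01 log2 units (exact permutation p = 0.25, n = 3). The size of that small gap, though not its direction, differed with the Wapl transcripts used. The longest coding Wapl transcript is the chosen one and gave the same -0.06. The gap was -0.90 with the Wapl transcript of highest mean TPM, and -3.14 with TPM added over the 7 Wapl transcripts. That transcript of highest mean TPM is a coding model of 479 bases in GENCODE M21, a length that did not give whole reads. Mau2, the partner that stabilizes NIPBL, stood at 13.7, 12.6 and 12.0 TPM. Nipbl lay -0.90 ± 0.22 from Mau2, a ratio of 0.536 ± 0.078, and -1.89 from it with TPM added over transcripts. Nipbl spans chromosome 15, 8290617 to 8444463, on the minus strand, and Wapl chromosome 14, 34673928 to 34747983, on the plus strand.

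PDS5 proteins bind the ring and help both its release and its protection by acetylation. Pds5b stood at 12.6, 14.3 and 12.2 TPM (13.0 ± 1.15 TPM) and Pds5a at 7.12, 7.82 and 8.24 TPM (7.73 ± 0.564 TPM). The groups of values did not overlap, and Pds5a lay below Pds5b in 3 of 3 libraries. The Pds5a minus Pds5b difference was -0.75 ± 0.16 log2 units, a ratio of 0.596 ± 0.070 (exact permutation p = 0.25, n = 3). It was -2.92 with TPM added over transcripts, of which Pds5b has 6 and Pds5a 1. Both genes are on chromosome 5, Pds5a at 65615260 to 65697856 on the minus strand and Pds5b at 150673739 to 150810690 on the plus strand. Their coding sequences were 68.8% identical over 3958 aligned bases.

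Ctcf stood at 13.0, 14.1 and 14.1 TPM (13.7 ± 0.670 TPM), close to Smc3, Stag2, Pds5b and Smc1a. Its coefficient of variation over the libraries was 4.88%, after Stag1 (4.60%) the smallest of the 10 genes, whose median was 7.69% beside 7.88% for all expressed coding genes. Ctcf lay -1.31 ± 0.07 log2 units from Rad21, a ratio of 0.402 ± 0.020 (exact permutation p = 0.25, n = 3), and 0.96 above it with TPM added over its 6 transcripts. It spans chromosome 8, 105636568 to 105682922, on the plus strand. The coding gene Agrp lies on the other strand within this span and shares no exonic base with it.

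In order of mean level the genes were Rad21, Stag2, Smc3, Ctcf, Pds5b, Smc1a, Pds5a, Wapl, Nipbl and Stag1. From Stag2 to Smc1a no gene differed from its neighbour beyond the spread, with mean log2 gaps of 0.05 ± 0.06, 0.01 ± 0.10, 0.08 ± 0.12 and 0.03 ± 0.12. The steps from Rad21 to Stag2 (1.25 ± 0.08), Smc1a to Pds5a (0.72 ± 0.04) and Nipbl to Stag1 (0.56 ± 0.06) kept their direction in 3 of 3 libraries. So did the smaller steps from Pds5a to Wapl (0.12 ± 0.04) and Wapl to Nipbl (0.06 ± 0.01). This order is described without a test, since the levels set it.

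**Figure D3:**
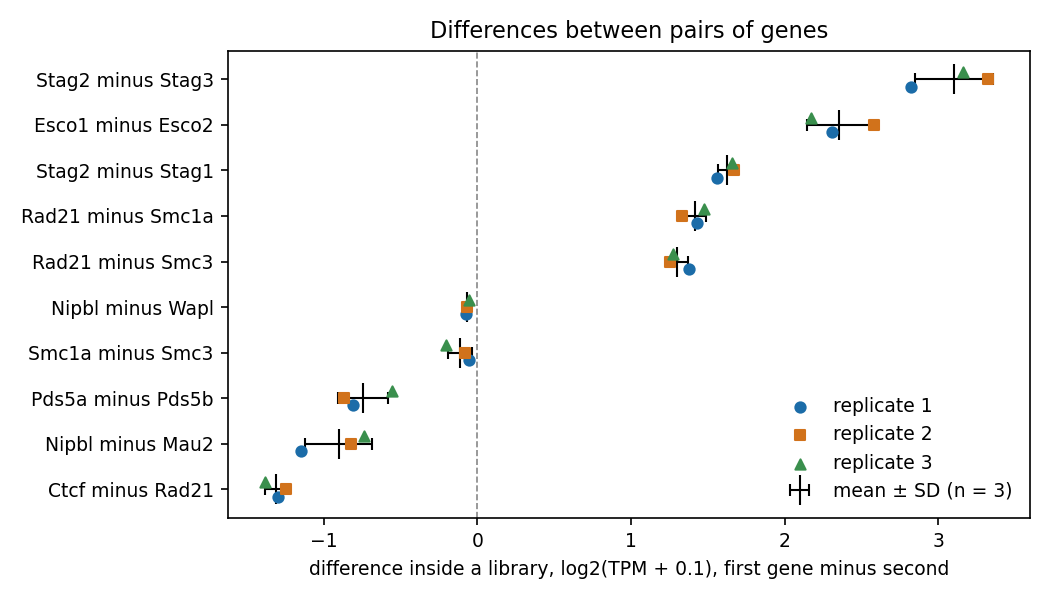
Difference between the genes of a pair inside each library (points) on the log2(TPM + 0.1) scale, with the mean and SD over 3 libraries; the dashed line marks equal levels. Stag2 lies 1.63 above Stag1 and Pds5a minus Pds5b at -0.75, while the points of Smc1a minus Smc3 and of Nipbl minus Wapl lie next to the line.

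The 10 genes are long, with a median span of 78.3 kb beside 25.9 kb for expressed coding genes. Rad21, the shortest at 29.5 kb, had the highest level, and Stag1, the longest at 362 kb, the lowest. Over the 10 genes Spearman's rho between span and level was -0.67, and -0.36 over the 8 genes left without Rad21 and Stag1. These genes share the same libraries, so the value is a description. Length classes were under 10, 10 to 30, 30 to 100, 100 to 200 and over 200 kb. Against all coding genes of their own class, those under 1 TPM included, 9 of the 10 lay over the class median. The exception was Stag1, at 4.56 TPM beside a median of 4.82 TPM for 958 genes over 200 kb. Rad21 lay above 91.4% of the 5688 genes of 10 to 30 kb.

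Promoter sequence was looked at as a feature the choice of genes did not use. RefSeq (GRCm38.p6) gave a promoter, 250 bases before the start to 50 after it, for 7 of the 10 genes: Smc1a, Smc3, Stag1, Wapl, Pds5a, Pds5b and Ctcf. They held 23 (Smc1a) to 55 (Pds5a) CpG dinucleotides with a median of 41, beside 21 for 11429 promoters of expressed genes and 7 for all 32851 promoters. The Sp1 box GGGCGG, read on either strand, was in 7 of 7, in 64.02% of promoters of expressed genes and in 35.7% of all. CCAAT, on either strand, was in 4 of 7, beside 37.8% and 37.4%, and TATAAA and CACGTG were in 0 of 7, beside 6.65% and 10.2% of promoters of expressed genes. The Stag1 promoter is shown as the one with the most Sp1 boxes of the 7, with 4 boxes and 43 CpG, and the Smc1a promoter as the one with the fewest CpG, with 1 box. Both are plus strand, 5′ to 3′, at chr9:100643198-100643497 and chrX:152016178-152016477, with the Sp1 boxes in capitals.
Stag1 promoter: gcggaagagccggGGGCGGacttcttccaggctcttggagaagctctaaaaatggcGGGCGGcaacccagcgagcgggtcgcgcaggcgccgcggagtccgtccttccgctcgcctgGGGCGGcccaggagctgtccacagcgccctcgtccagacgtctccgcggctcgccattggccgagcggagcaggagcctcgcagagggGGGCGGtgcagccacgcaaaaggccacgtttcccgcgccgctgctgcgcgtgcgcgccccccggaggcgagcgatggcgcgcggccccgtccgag
Smc1a promoter: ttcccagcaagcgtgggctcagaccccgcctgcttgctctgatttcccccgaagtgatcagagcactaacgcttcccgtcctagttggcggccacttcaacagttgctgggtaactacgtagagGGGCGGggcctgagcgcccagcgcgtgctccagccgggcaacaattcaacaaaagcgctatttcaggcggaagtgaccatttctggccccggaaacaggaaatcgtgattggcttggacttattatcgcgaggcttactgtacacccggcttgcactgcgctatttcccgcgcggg
A match to these letters is a description of the sequence and was not tied to the levels.

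The table listed 56 transcripts of the 10 genes, from 1 for Rad21, Pds5a and Nipbl to 17 for Stag1. Since TPM is scaled by length, transcripts of a gene can be read as read densities over different parts of it. Retained-intron models stood at a median of 48.7% of the level of the gene's chosen transcript, with 8 of 16 under 50%, against 1 of 27 coding transcripts, which include the chosen ones. The highest of them, a Smc1a model of 2 exons (ENSMUST00000131395.1), reached 20.1 ± 3.18 TPM, 157% of the Smc1a transcript. The lowest, a Stag1 model (ENSMUST00000122824.1), stood at 0.514 ± 0.212 TPM, 11.3% of the Stag1 transcript. Every Wapl transcript stood at or above the one that represents the gene, up to 12.8 ± 1.44 TPM, while Ctcf and Pds5b had no transcript above theirs.

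Density also differed along single genes. For Smc1a, the nonsense-mediated decay model that covers 10 exons at the start of the gene stood at 16.4 ± 1.59 TPM, and the remaining 2867 bases of the full transcript at 10.4 ± 0.582 TPM. For Wapl, the shorter coding transcript stood at 8.05 ± 0.753 TPM, and the 2285 bases found in the longer one alone, 2031 of them at the downstream end, at 5.41 ± 0.367 TPM, on 596, 574 and 557 reads. For Stag1, a coding model of 23 exons from the middle of the transcript (ENSMUST00000146934.3) stood at 5.82 ± 0.235 TPM. The rest of the chosen transcript, with 1482 bases upstream of that model and 1711 downstream of it, stood at 3.46 ± 0.284 TPM. In each of these 3 genes the denser and the sparser part did not overlap over the libraries. Uneven density within a transcript is of the size of some gaps between genes above, and its part in them was not tested.

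**Figure D4:**
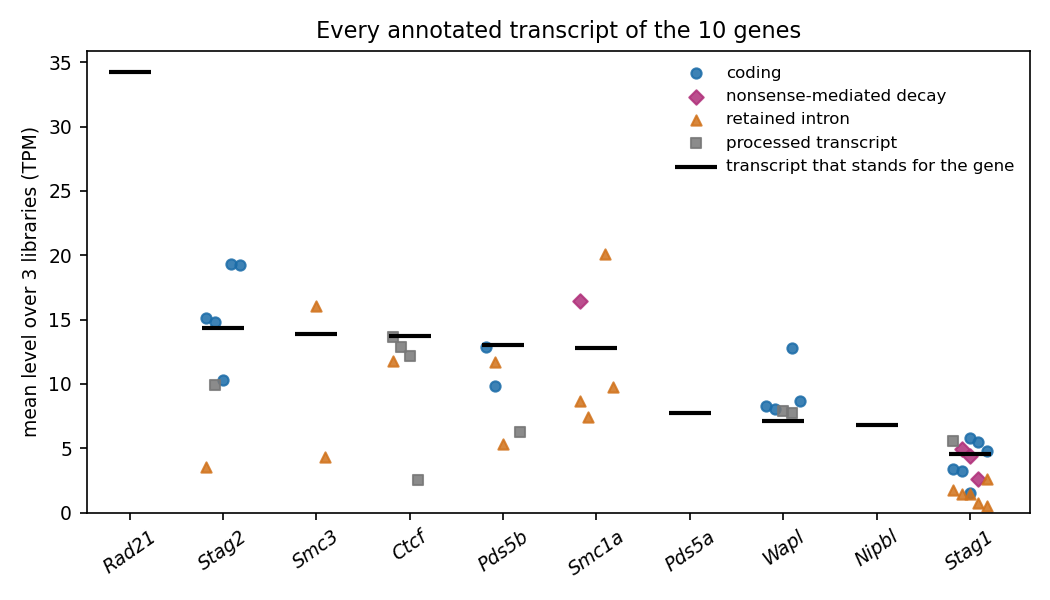
Mean level over 3 libraries (TPM, linear axis) of every annotated transcript of the 10 genes, by annotated type; black dashes mark the transcript that stands for a gene. Smc1a, Stag2, Smc3, Wapl and Stag1 have transcripts above their dash, up to 20.1, 19.3, 16.1, 12.8 and 5.82 TPM. Retained-intron models of Stag1 and Stag2 lie well below it.

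Replicate 1 held the lowest value of 9 of the 10 genes, as it did for 33.6% of expressed coding genes. The exception was Pds5b, lowest in replicate 3, where 41.0% of expressed genes were lowest. On the log2 scale the 10 genes deviated from their own means by a median of -0.11 in replicate 1, 0.05 in replicate 2 and 0.07 in replicate 3, beside -0.01, 0.02 and -0.02 for all expressed genes. Replicate 3 held the highest value of 6 of the 10 genes (31.4% of expressed genes) and replicate 2 of the other 4 (40.4%), and replicate 1 of 0 (28.2%). None of the 10 was lowest in replicate 2, where 25.4% of expressed genes were. With TPM rescaled to nuclear coding genes, the count highest in replicate 2 fell to 1, beside 33.6% of expressed genes under the same rescaling. The count highest in replicate 3 was then 9 (40.2%), and 9 were still lowest in replicate 1 (36.2%). Summed pan-neuronal markers were 1858, 1913 and 1632 TPM and summed astrocyte markers 410, 438 and 505 TPM in replicates 1, 2 and 3. Their part in these small shifts was not tested.

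**Figure D5:**
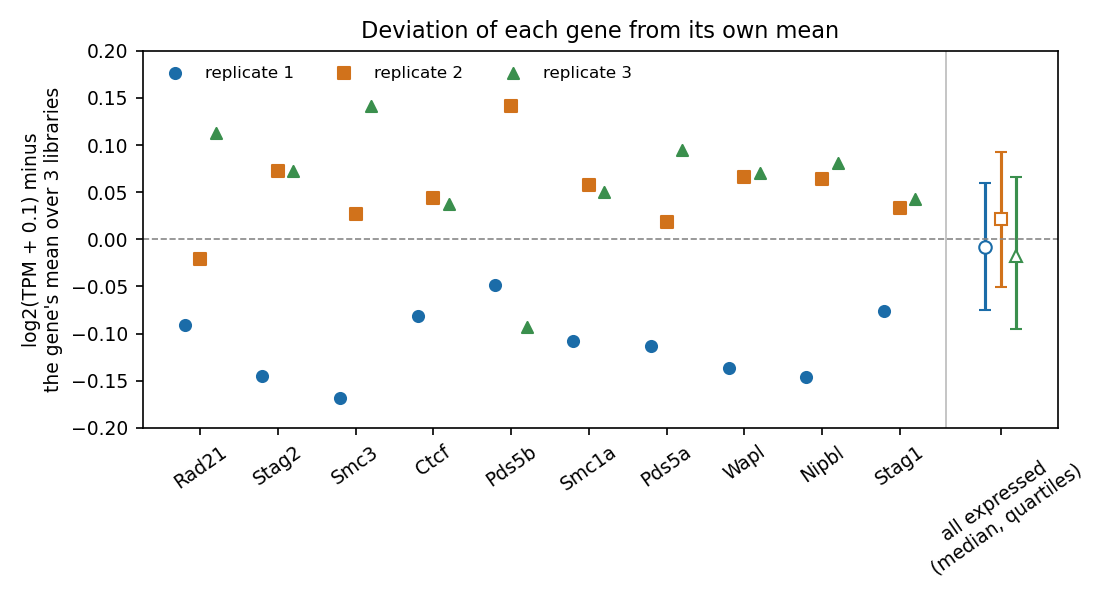
Deviation of each of the 10 genes from its own mean in each library (log2(TPM + 0.1) units, points), with the median and quartiles of all expressed coding genes at the right. Replicate 1 is lowest for 9 genes, and Pds5b, lowest in replicate 3, is the exception.

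Other genes of the pathway were taken from a list of 24, of which 12 reached 1 TPM, beside 61.8% of all coding genes. Of 3 genes that act in loading and in the acetylation cycle of SMC3, 3 were expressed: Mau2, the acetyltransferase gene Esco1 (4.38 ± 0.344 TPM) and the deacetylase gene Hdac8 (3.27 ± 0.464 TPM). Some of the Esco1 transcript has other copies in the genome, with 85.1% of its 50-base windows found there at most once. All 7 genes for other factors linked to looping or to CTCF were expressed. Those named here ran from the zinc finger gene Zfp143 (2.10 ± 0.238 TPM) through Chd8 (10.4 ± 0.485), Yy1 (15.3 ± 1.31), the LIM domain-binding gene Ldb1 (24.02 ± 2.87) and Adnp (28.2 ± 1.64) to Maz (39.1 ± 2.01 TPM).

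Genes that cohesin needs in cell division were low, with 1 of 9 at 1 TPM, beside 61.8% of all coding genes. Esco2, which acetylates cohesin in S phase, stood at 0.730, 0.659 and 0.962 TPM, and Esco1 exceeded it by 2.35 ± 0.21 log2 units, a ratio of 5.70 ± 0.962 (exact permutation p = 0.25, n = 3). The difference was 3.47 with TPM added over transcripts. The sororin gene Cdca5, which counters WAPL after replication, stood at 0.384 ± 0.034 TPM. The shugoshin genes Sgo1 and Sgo2a, whose products protect centromeric cohesin, stood at 0.448 ± 0.163 and 0.671 ± 0.080 TPM. The separase gene Espl1 (0.307 ± 0.085 TPM) and the securin gene Pttg1 (0.849 ± 0.068 TPM) control its cleavage at anaphase. The kinase gene Plk1 was the one at 1 TPM (1.05 ± 0.313 TPM), with Haspin at 0.200 ± 0.062 and the helicase gene Ddx11 at 0.420 ± 0.081 TPM. Replicate 2 gave the lowest value for 7 of these 9, and for 32.2% of the 3779 coding genes with a mean between 0.1 and 2 TPM. The summed proliferation markers were also lowest there, at 26.02, 20.6 and 25.6 TPM, and their part in these values was not tested.

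Meiotic and germline relatives gave few or no reads, with Stag3 as the exception, the 1 of 5 at 1 TPM, beside 61.8% of all coding genes. Stag3, the STAG subunit of meiotic cohesin, stood at 1.74, 1.41 and 1.59 TPM on 375, 257 and 306 reads, and Stag2 exceeded it 9.19 ± 1.63-fold, or by 3.10 ± 0.25 log2 units (exact permutation p = 0.25, n = 3). Smc1b had 8, 7 and 13 reads, and Smc1a exceeded it 275 ± 76.8-fold. Rad21l had 3, 4 and 1 reads. Rec8 was at 0 in each library, where 3 reads per library, the limit that a count of 0 allows, correspond to 0.027 to 0.032 TPM, so Rad21 was at least 1059-fold higher. Ctcfl, the germline relative of Ctcf, had 1 read in all, which puts Ctcf at 6092 times its level with an exact 95% counting interval of 1093 to 240622. These limits and intervals cover counting error only.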

How the data were processed

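The single deposited table gives TPM per transcript, computed by the authors for 84660 transcripts and labelled as GENCODE mouse release M4. RNA was extracted with RNeasy and libraries were made with the KAPA RNA HyperPrep kit, per the labels' protocols. The submitters' processing notes list mm10 as the build, and Subread 1.4.6, featureCounts, STAR 2.5.3a and FastQC 0.11.2 as tools, without order. Counting options are not given in the sources used here. Each TPM column has the same total over all transcript rows, which can share reads, so a value is relative.

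Identifiers, with the version dropped, were looked up in GENCODE M21 on GRCm38, the same build, and 98.1% matched (1643 did not). Multiplied by exonic length, TPM came to a whole number of reads, within 0.01 of a read, times 1 constant per library for 99.8% of the 69520 rows above 0 with unchanged ends, and reads were obtained by dividing by it. Over all matched rows above 0, changed ends included, the share was 89.9%. For Rad21, Nipbl and Smc1b, the M21 length was first moved to the ends in the table. Zfp143 reads did not come out whole, so its reads are not given. Between transcripts that differ by 1 internal exon, the longer held no fewer reads in 1501 of 1501 pairs with enough reads. A gene's value is that of its coding transcript with the highest mean TPM times exonic length. Only genes of protein-coding type with a coding transcript in the table were counted.

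Within a library, a pair of genes was compared by the difference of log2(TPM + 0.1), a scale that understates gaps to low genes, with two-sided exact sign-flip permutation tests and Benjamini-Hochberg adjustment over 14 pairs. Genes averaging 1 TPM or more on the deposited scale count as expressed. Copies were counted by searching windows of 50 bases, taken every 10 bases, on both strands of 22 chromosomes. A planned comparison of proteins was replaced by one of coding sequences, aligned globally. The genes, lists and pairs were chosen with earlier results of these data known. The comparison of alternative exons used transcripts with at least 1000 reads over the 3 libraries and at most 200 further bases at the ends, with the pair of fewest extra reads for each exon, and it was chosen after seeing the data. Named are the 10 genes, the genes of the pairs, the pathway list (1 gene of it is counted but not reported here), the highest and lowest gene of each marker list, and transcripts of the 10 genes; those described for density were picked with their values in view. The statistics were tested on simulated data, where 100% of the reads of 20000 rows were recovered. A planted log2 difference of 2 came out as 2.01, from the median over many planted pairs. The simulated rows shared no reads, unlike transcripts of a gene here, so the effect of shared reads was not tested. Python 3.11.15, numpy 2.4.6, pandas 2.3.3, scipy 1.17.1 and matplotlib 3.10.9 were used.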

Additional observations from a re-analysis of the deposited data

How the results depend on the processing

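Adding TPM over all transcripts of a gene, which counts shared reads repeatedly, turned Smc1a minus Smc3 to 1.14, Rad21 minus Smc1a to -1.13 and Ctcf minus Rad21 to 0.96. The transcript of highest mean TPM, a retained-intron model for both Smc1a and Smc3, turned Smc1a minus Smc3 to 0.32. With the sum, Rad21 minus Smc3 was 0.0038 ± 0.056 (SD), with no common direction over the 3 libraries (exact permutation p = 1). The other 10 pairs kept their direction under each alternative run: other transcripts, pseudocounts of 1 and 0.01 TPM, rescaling to nuclear coding genes and leaving out each replicate. The median level of the 10 genes was 56.9 TPM with the sum and 59.8 TPM after rescaling, which changes the unit by construction. With the sum, 4 of the 9 neighbours in the order of levels kept their order. Of the 24 genes of the pathway list, 7 reached 5 TPM. The share of all coding genes at 5 TPM was not counted, but 57.3% of them lay below Stag1 at 4.56 TPM. The count of the 10 genes highest in replicate 2 was 1 after rescaling, beside 33.6% of expressed genes. No alternative could move a pair past 0.05, since 3 libraries allow no p below 0.25. No paired analysis was possible because the libraries form 1 group, with no second group to pair them with, and pairing was of genes inside a library. In alternatives chosen after seeing the data, the share of other exons at or below the Stag1 and Stag2 exons was 49.7% and 37.2% for exons of 75 to 150 bases, and 43.1% and 30.6% with a minimum of 300 reads.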
